A study of Caenorhabditis elegans with 2 samples.

Results

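The Hox genes of Caenorhabditis elegans studied here are ceh-13, lin-39, mab-5, egl-5, nob-1 and php-3. They were chosen by name, as 6 of the 19973 protein-coding genes annotated on the nuclear chromosomes. A region belonged to a Hox gene when its summit lay inside the gene or within 10 kb of it. The data are chromatin immunoprecipitation sequencing (ChIP-seq) of EYG-1, the homeodomain protein made by eyg-1 (Y53C12C.1), from whole hermaphrodites of strain OP443 at a late embryonic stage, 4 hours after egg bleaching. The worms stably carry EYG-1 with a GFP-FLAG tag at its C-terminus, and the tag was precipitated with anti-GFP. The 2 libraries, labelled as replicates 1 and 3, form 1 group, and there is no second condition to compare. Both come from the same tagged line, the sequence that drives the transgene is not given in the labels, and no untagged worms were analysed here. In whole embryos, binding in few cells and weak binding in many cells cannot be told apart.

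Hox genes encode homeodomain transcription factors that give cells along the body axis their regional identity. In the worm they stand as loose pairs rather than as 1 compact cluster, and they steer cell migration, cell fate and cell fusion. From the anterior, ceh-13 is the labial-like member, lin-39 acts in the midbody and the vulval precursor cells, mab-5 acts in more posterior cells and in the male tail, and egl-5, nob-1 and php-3 are Abdominal-B-like genes of the posterior.

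All 6 genes lie on chromosome III, and positions are in the ce11 build, counted from 1. The gene lin-39 (WBGene00003024, 7528641 to 7536632, minus strand) and ceh-13 (WBGene00000437, 7555660 to 7558041, plus strand) point away from each other across 19027 bp. The gene mab-5 (WBGene00003102, 7776835 to 7783454, minus strand) and egl-5 (WBGene00001174, 7814374 to 7817141, plus strand) do the same across 30919 bp. The genes nob-1 (WBGene00003779, 12077793 to 12084316) and php-3 (WBGene00004024, 12074218 to 12077556) both lie on the minus strand, 236 bp apart, so that their windows overlap and share 8 regions.

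The windows held weak candidate regions and 1 strong region, and that region lay at another gene. The pooled list, called on both libraries together, held 38 distinct regions in the 6 windows of its 24215 in all. The list of replicate 1 held 40 of 27360, that of replicate 3 held 27 of 24519, and the optimal list, which keeps regions by their reproducibility in rank, held 1 of 519. The pooled and replicate lists contain background regions by design. Of all protein-coding genes, 95.1% have a pooled region in their window, so that the 6 of 6 Hox genes with regions are near that share. A single Hox gene, lin-39, had an optimal region in its window, against 11.3% of all protein-coding genes. Among the 519 strongest pooled regions, which are 2.14% of that list, 1 of the 38 Hox regions was found. These counts come from 1 pooled call and carry no error, and the depth of each library is unknown here.

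Sequences of 121 bp centred on the summits are shown for the strong region and, at each gene, for regions whose nearest protein-coding 5′ end was that of the Hox gene. These are the regions matched in both replicates, or the strongest of these where none was matched. All were read from the plus strand of the RefSeq WBcel235 genome, the same build, and capitals mark the homeodomain core TAAT or its reverse complement. The Hox and PBC sequence TGATNNAT, searched in the same way, was in none of the 7.
Strong region in the lin-39 window, chrIII:7520780-7520900: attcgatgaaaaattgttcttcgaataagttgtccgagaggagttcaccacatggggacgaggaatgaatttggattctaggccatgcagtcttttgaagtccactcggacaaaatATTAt
Upstream of lin-39, chrIII:7543288-7543408: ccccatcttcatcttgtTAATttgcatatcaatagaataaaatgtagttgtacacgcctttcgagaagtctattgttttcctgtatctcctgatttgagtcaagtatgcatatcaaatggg
Upstream of ceh-13, chrIII:7554616-7554736: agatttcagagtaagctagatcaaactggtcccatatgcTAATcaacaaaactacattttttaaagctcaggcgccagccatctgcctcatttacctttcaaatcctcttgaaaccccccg
Upstream of mab-5, chrIII:7784502-7784622: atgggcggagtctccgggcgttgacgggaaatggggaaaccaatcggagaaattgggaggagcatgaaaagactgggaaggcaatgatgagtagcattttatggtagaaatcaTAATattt
Upstream of egl-5, chrIII:7806503-7806623: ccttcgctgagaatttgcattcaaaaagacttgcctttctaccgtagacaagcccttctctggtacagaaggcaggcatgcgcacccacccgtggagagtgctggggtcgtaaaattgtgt
Upstream of nob-1, chrIII:12093726-12093846: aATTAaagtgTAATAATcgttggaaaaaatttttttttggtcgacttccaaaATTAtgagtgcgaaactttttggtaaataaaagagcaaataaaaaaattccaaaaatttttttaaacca
Upstream of php-3, chrIII:12078369-12078489: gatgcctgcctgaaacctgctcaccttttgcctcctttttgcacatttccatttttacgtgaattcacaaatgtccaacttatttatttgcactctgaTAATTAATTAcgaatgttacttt

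The strong region had its summit at 7520840, on the downstream side of lin-39 and 7801 bp from the end of that gene. Its signal, the value given by the authors' caller on that caller's own scale, was 123.8 in the pooled list, where it ranked 101. In replicate 1 it was 96.9 and ranked 13, and in replicate 3 it was 26.0 and ranked 1193. The replicates thus put it in the top 0.0475% and the top 4.87% of their lists, so that replicate 1 ranked it far higher. The optimal list gives it as 7520612 to 7521067, with a signal of 137.6 and rank 82 of 519.

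This summit lay 5 bp inside the annotated 5′ end of cux-7 and 15792 bp past that of lin-39. It stood 169 bp upstream of C07H6.2 and 623 bp upstream of lig-4, the gene of DNA ligase IV, both on the other strand. Also within 10 kb were clk-2 and cls-1, the latter a CLASP microtubule protein gene, so that 6 protein-coding genes share the region. No non-coding gene was annotated within 100 bp. In the 121 bp shown, 40.5% of bases were G or C, and the 1 TAAT core lay more than 50 bp from the summit. Assigned to the nearest 5′ end, no optimal region belonged to a Hox gene.

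**Figure D1:**
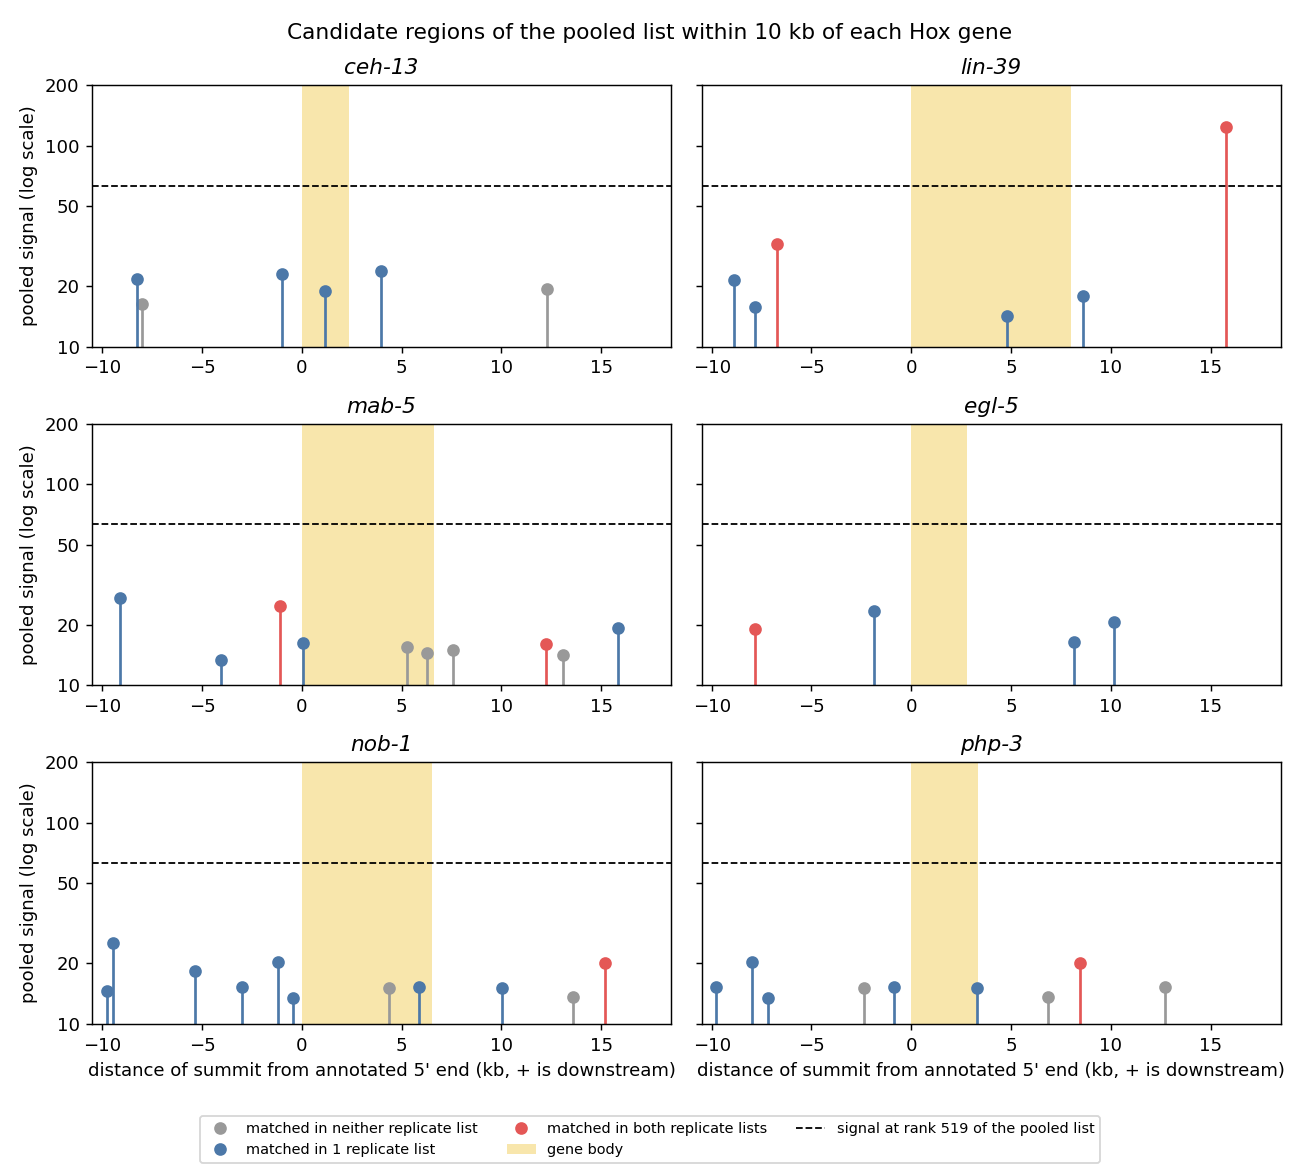
Signal of each pooled region (vertical, log scale) against the distance of its summit from the annotated 5′ end of the Hox gene (horizontal, kb, positive in the direction of transcription), coloured by whether a summit lay within 100 bp in each replicate list. The dashed line is the signal at rank 519 of the pooled list, 63.3, and of the 38 regions only the one at cux-7, in the lin-39 panel, lies above it.

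Apart from that region, lin-39 had its highest signal upstream, toward ceh-13. This region (7543120 to 7543575, 6716 bp upstream) had a pooled signal of 32.4 and ranked 2318, with 17.2 and rank 2480 in replicate 1 and 13.9 and rank 8396 in replicate 3. It was matched in both replicates, as was the region at cux-7, and its sequence is the one shown upstream of lin-39. The remaining 4 pooled regions of lin-39 had signals between 14.3 and 21.6, and each was matched in 1 replicate. They lay 8879 bp and 7819 bp upstream, in an intron 4822 bp past the 5′ end, and 8619 bp past it beyond the gene. The region 7819 bp upstream stood within 100 bp of the long intergenic RNA gene linc-57, the 1 Hox region of the 38 with a non-coding gene that near its pooled summit. For the region 6716 bp upstream, the summit in replicate 1 also lay within 100 bp of linc-57.

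At ceh-13 no pooled region had a summit within 100 bp in both replicates. The strongest (7559394 to 7559849) lay beyond the gene, 3962 bp past its 5′ end and 2550 bp upstream of lgc-12, a ligand-gated channel gene. Its signal was 23.9 in the pooled list and 12.8 in replicate 3, where it ranked 10626, and it had no match in replicate 1. A weak region of replicate 1 (7559658 to 7560107, 7.62, rank 24257) overlaps it, but with its summit further than 100 bp away. The next (7554448 to 7554903) lay 984 bp upstream of ceh-13, with 22.9 in the pooled list, and 12.4 with rank 7362 in replicate 1. The highest region of replicate 3 in the window (7554318 to 7554767, 13.5, rank 9249) overlaps it, but its summit, 1117 bp upstream of ceh-13, is further away than the 100 bp that counted as a match. A region 8241 bp upstream had a pooled signal of 21.6 and reached rank 1854 in replicate 1, with 19.0, and had no match in replicate 3. The other 3, including 1 in the intron, had pooled signals from 16.4 to 19.4.

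The mab-5 window held 10 pooled regions, more than the 4 of egl-5, in a window of 26.6 kb against 22.8 kb. The strongest (7792339 to 7792794) lay 9113 bp upstream of mab-5, toward egl-5, and 2842 bp past the 5′ end of cyk-7. It had a pooled signal of 27.0 and rank 3789, with 15.3 and rank 3669 in replicate 1 and no match in replicate 3. The next (7784334 to 7784789) lay 1108 bp upstream of mab-5. It had a pooled signal of 24.8, 11.9 and rank 8302 in replicate 1, and 14.3 and rank 7660 in replicate 3. It stood in the top 30.3% of the first list and the top 31.2% of the second. A weak region at the 5′ UTR of mab-5, 56 bp past the 5′ end, had 16.2 in the pooled list and 10.1 in replicate 1. Of the 10 regions, 4 had no match in either replicate, and 2 were matched in both, the second 12261 bp past the 5′ end of mab-5 and 1073 bp upstream of the splicing factor gene snu-23, with 16.1 in the pooled list.

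At egl-5 the replicates gave their highest signals at different places. The region 1868 bp upstream (7812278 to 7812733) had a pooled signal of 23.5 and, in replicate 3, 21.9 and rank 1970, but no match in replicate 1. In replicate 1 the highest signal in the window, 19.5 with rank 1718, lay 10006 bp past the 5′ end, at egl-45, an eIF3 subunit gene. The nearest pooled region there (7824283 to 7824738), with 20.6, had its summit further than 100 bp away and was matched only to replicate 3, with 12.1 and rank 12372. The 1 region matched in both replicates lay 7811 bp upstream, with 19.03 in the pooled list, rank 13119 in replicate 1 and rank 20579 in replicate 3. It ranked near the middle of the first list, with 10.1 beside a list median of 9.93, and low in the second, with 9.78 beside 12.2.

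The nob-1 window held 11 pooled regions and the php-3 window 9. The strongest at nob-1 (12093558 to 12094013) lay 9470 bp upstream, with a pooled signal of 25.4 and, in replicate 3, 10.4 and rank 18097, and no match in replicate 1. A region of replicate 1 (12093733 to 12094182, 12.7, rank 6855) overlaps it, but with its summit further than 100 bp away. The next at nob-1 and the strongest at php-3 are the same region (12085301 to 12085756), 1213 bp upstream of nob-1 and 7973 bp upstream of php-3. It had 20.4 in the pooled list and 12.7 with rank 6804 in replicate 1, and no match in replicate 3. The second region of php-3 (12068897 to 12069352) lay inside zyg-8, a doublecortin-type kinase gene, with 20.02 in the pooled list, rank 13109 in replicate 1 and rank 22711 in replicate 3. It was the 1 region of these windows matched in both replicates. In replicate 3 the highest signal at nob-1 was 18.7, 5341 bp upstream of the gene, at rank 3277. The region nearest upstream of php-3 lay 873 bp from its 5′ end, within nob-1, with 15.2 in the pooled list and 13.7 with rank 5316 in replicate 1. It is the region shown above for php-3, where 4 TAAT cores overlap in part.

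Few of these regions recurred in both libraries, as in the pooled list as a whole. Of the 38 pooled Hox regions, 6 (15.8%) had a summit within 100 bp in both replicate lists, against 18.2% of all pooled regions. A further 11 were matched in replicate 1 only, 12 in replicate 3 only and 9 (against 19.8% of the list) in neither. The shares of the whole list matched in replicate 1 only or in replicate 3 only are not given here. That split is therefore a description and not a trait of the Hox windows. Seen from the replicates, 17 of the 40 Hox regions of replicate 1 (42.5%, against 41.1% of its list) and 18 of the 27 of replicate 3 (66.7%, against 51.4%) had a pooled summit within 100 bp. The share was thus close to that of the whole list in replicate 1 and higher in replicate 3, and neither difference was tested. The 6 regions seen in both were those at cux-7, 6716 bp upstream of lin-39, at snu-23, 1108 bp upstream of mab-5, 7811 bp upstream of egl-5 and inside zyg-8, and for 3 of these the nearest 5′ end was that of a Hox gene.

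**Figure D2:**
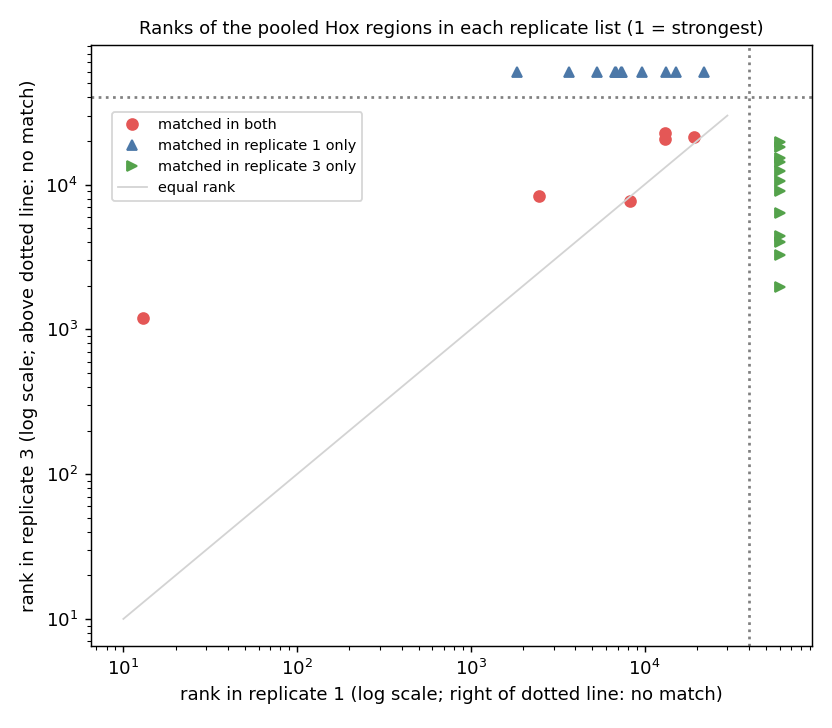
Rank of each pooled Hox region matched in a replicate list, in replicate 1 (horizontal) and replicate 3 (vertical), both on log scales with 1 as the strongest. Symbols beyond the dotted lines had no summit within 100 bp in the other list. The 9 regions matched in neither list are not drawn. The region at cux-7, with ranks 13 and 1193, stands apart at the lower left, and the other 5 regions matched in both rank between 2480 and 22711.

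The promoters of the Hox genes, taken from 1000 bp before each annotated transcript 5′ end to 200 bp after it, held 5 pooled regions. They lay at ceh-13, at mab-5, at php-3 and, in 2 cases, at nob-1, and no pooled region lay in a promoter of lin-39 or egl-5. The share of all protein-coding genes with a pooled region in their own promoter is not given here, so that these places are a description. The list of replicate 1 had a region in the promoters of both lin-39 and egl-5, without a pooled summit within 100 bp. It lay 104 bp past the 5′ end of egl-5 (11.2, rank 10009) and 780 bp upstream of lin-39 (7.71, rank 23729). Of all pooled regions, 33.8% lay in a promoter of some protein-coding gene, and of the 38 Hox regions 9 (23.7%), including 4 at neighbouring genes. The 5 had a median signal of 15.2 and a maximum of 22.9 at rank 6290, beside a median of 19.3 over all promoter regions of the pooled list. None was matched in both replicates, 4 were matched in 1 and 1 in neither. Over all pooled regions, 18.2% were matched in both and 19.8% in neither. The same shares over all promoter regions are not given here, and 5 regions are too few to compare. Of the 38 regions, 8 lay inside a Hox gene and 8 inside another gene. Many annotated 5′ ends in C. elegans are trans-splice sites, so that a distance to a 5′ end need not be a distance to the start of transcription.

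As a group, the Hox regions had signals close to those of the whole list. Their median was 17.1 in the pooled list, where that of all regions was 18.2. In replicate 1 the medians were 10.1 and 9.93, and in replicate 3 they were 12.1 and 12.2. The number of Hox regions above the median of the whole list was 18 of 38, 21 of 40 and 13 of 27. The 6 windows cover 128.9 kb and hold 2.95 pooled regions per 10 kb, beside 3.04 on chromosome III and 2.41 over the nuclear genome. By gene this density was highest at nob-1, with 4.15, followed by php-3 with 3.86, mab-5 with 3.76, ceh-13 with 2.68, lin-39 with 2.14 and egl-5 with 1.76, and the median over protein-coding genes was 2.06.

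Ordered by the highest pooled signal in the window, the genes were lin-39, mab-5 (27.0), nob-1 (25.4), ceh-13 (23.9), egl-5 (23.5) and php-3 (20.4). Of all protein-coding genes, 97.5% had a lower value than lin-39, 50.1% than mab-5, 44.1% than nob-1, 38.6% than ceh-13, 37.4% than egl-5 and 26.1% than php-3. In replicate 1 the highest signals were 96.9 at lin-39, 19.5 at egl-5, 19.0 at ceh-13, 15.3 at mab-5 and 13.7 at both nob-1 and php-3. In replicate 3 they were 26.0 at lin-39, 21.9 at egl-5, 18.7 at nob-1, 17.0 at mab-5, 15.2 at php-3 and 13.5 at ceh-13. Both replicates put lin-39 first, by the region at cux-7, and egl-5 next, by different regions. For egl-5 these lay at egl-45 in replicate 1 and 1915 bp upstream in replicate 3. Without the region at cux-7, lin-39 had at most 17.2 in replicate 1 and 17.5 in replicate 3. The gene ceh-13 came directly after egl-5 in replicate 1 and last in replicate 3. The order of ceh-13, mab-5, nob-1 and php-3 thus changed between libraries, and with 1 value per library these neighbours cannot be told apart.

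**Figure D3:**
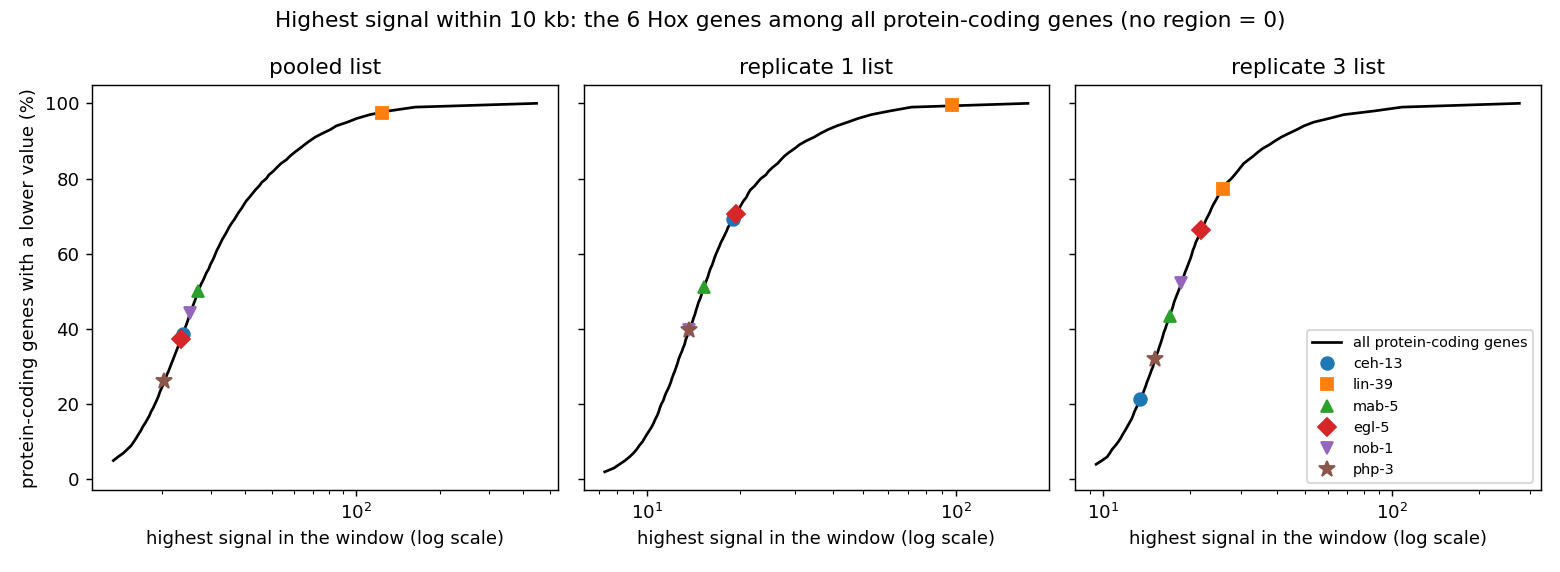
Percent of all protein-coding genes with a lower value (vertical) against the highest signal within 10 kb (horizontal, log scale), in the pooled list and in each replicate list; the line is all protein-coding genes and symbols are the 6 Hox genes. In the pooled list lin-39 lies above 97.5% of genes, by the region at cux-7, and the other 5 lie between 26.1% and 50.1%.

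Restricted to regions whose nearest protein-coding 5′ end was that of the gene itself, 23 of the 38 regions remained. The highest pooled signal was then 32.4 at lin-39, 25.4 at nob-1, 24.8 at mab-5, 23.5 at egl-5, 22.9 at ceh-13 and 15.2 at php-3. The median over the 10950 protein-coding genes with such a region was 21.0, and of the 6 Hox genes only php-3 lay below it. Of all protein-coding genes, with those lacking such a region set to 0, 90.2% had a lower value than lin-39. The share was 82.4% for nob-1, 81.3% for mab-5, 78.7% for egl-5, 77.5% for ceh-13 and 52.6% for php-3. All 6 signals lay below 63.3, the signal of the pooled region at rank 519. For ceh-13 the closest optimal region was the one at cux-7, 34.8 kb away. The closest optimal region to mab-5 and egl-5 lay 71.2 kb and 37.5 kb away, at the ribosomal protein gene rpl-35. For nob-1 and php-3 it lay 131.2 kb and 127.7 kb away, next to Y56A3A.7.

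The sequence under the Hox regions was AT-rich, as in the pooled list as a whole. Within 50 bp of the summit the median GC content was 34.2% for the 38 Hox regions, 36.6% for all pooled regions and 51.5% for the 519 optimal regions. Motifs were searched in these 101 bp windows on both strands. The homeodomain core TAAT was in 17 of 38 Hox windows (44.7%), in 60.8% of all pooled windows and in 33.1% of optimal windows. The longer TAATTA, which contains TAAT, was in 2 Hox windows (5.26%), in 5.17% of pooled windows and in 1.54% of optimal windows. The sequence TGATNNAT, bound by Hox proteins together with their PBC partners, was in 2 (5.26%), in 5.91% of pooled windows and in 2.31% of optimal windows. The sequence GAGAG was in 8 (21.1%), in 17.4% of pooled windows and in 42.6% of optimal windows. These shares are not adjusted for base composition, and no difference between them was tested.

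Homeobox genes outside the Hox set were examined in the same windows. Of 62 protein-coding genes with a ceh symbol other than ceh-13, 4 (6.45%) had an optimal region within 10 kb, beside 11.3% of all protein-coding genes and 1 of the 6 Hox genes. The median of the highest pooled signal was 30.6 for these genes, 24.6 for the 6 Hox genes and 28.0 for all protein-coding genes. No test of these differences was made.

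Other genes that work with or control the Hox genes were examined in the same windows, from a list of 28 genes. Of these, 27 had a pooled region and 6 (21.4%) an optimal region, beside the 11.3% of all protein-coding genes. None of the 5 cofactor genes, of the 3 homeobox genes acting beside or upstream of Hox genes, or of the 6 genes reported as Hox targets had one. Among the cofactor genes, ceh-20, a PBC homeobox gene, had the highest pooled signal, 61.2 at rank 560, with 36.2 in replicate 1 and 30.6 in replicate 3. That summit lay 7778 bp upstream of ceh-20 but 147 bp upstream of rfc-4, a replication factor C gene, and within 100 bp of a microRNA gene. The Meis-type gene unc-62 followed with 36.6 in an intron, 25.9 in replicate 1 and 11.3 in replicate 3. Of the homeobox genes, vab-7, an even-skipped-like gene, had 44.9 (13.7 in replicate 1 and 26.5 in replicate 3), and ceh-16, an engrailed-like gene, had 37.6 (19.99 and 18.9). Both summits lay beyond the gene, the first 174 bp upstream of M142.5 and the second 30 bp past the 5′ end of polk-1. Of the reported targets, mig-13, which acts in neuroblast migration, had 59.1 (35.4 in replicate 1 and 23.9 in replicate 3), beyond the gene and within 100 bp of a tRNA gene. The cell death gene egl-1 had 56.2, matched in replicate 3 only with 33.5, beyond the gene and 292 bp upstream of rrsr-1.

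The 6 genes with an optimal region were 3 of the 8 Polycomb-type and 3 of the 6 trithorax-type or demethylase genes, groups known to maintain Hox expression patterns. The share over all protein-coding genes was 11.3%, and with so few genes and no test these counts are a description. The gene sor-3 had a pooled signal of 112.2 at rank 125, 243 bp upstream of its 5′ end, with 20.7 and rank 1420 in replicate 1 and 89.6 and rank 79 in replicate 3. A tRNA gene lay within 100 bp of that summit. The gene sor-1 had 104.3 at rank 156, 641 bp upstream, with 61.1 and rank 82 in replicate 1 and no match in replicate 3. Replicate 3 thus ranked the sor-3 region higher than replicate 1 did. At sor-1 the missing match means only that replicate 3 had no summit within 100 bp, which need not mean low signal there. The optimal list holds a region at that place (8417350 to 8417805). The histone methyltransferase gene set-2 had 94.8 at rank 194, 262 bp upstream, with 54.6 and rank 109 in replicate 1 and 39.1 and rank 460 in replicate 3. The complex subunit gene ash-2 had 56.04 at rank 688, 422 bp past its 5′ end and 416 bp upstream of Y17G7B.20, with 26.6 in replicate 1 and 28.3 in replicate 3. The other 2 with an optimal region were sop-2 (pooled signal 66.01, 632 bp upstream) and lin-59 (52.8, 486 bp upstream), named after their values were seen. In these 6 genes the strongest pooled region lay between 243 and 641 bp from the gene's own 5′ end, and in 5 of them, all but ash-2, that 5′ end was the nearest. Such a place is common among optimal regions, of which 54.9% lay in a promoter of some protein-coding gene.

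By the highest signals in the 2 replicate lists, the gene outside the Hox windows most like each Hox gene was C10C5.3 for ceh-13, the collagen gene col-111 for lin-39, F32D8.1 for mab-5, pqn-72 for egl-5, ZC53.1 for nob-1 and the GATA factor gene elt-4 for php-3. The likeness was the Euclidean distance of log2 signals over 2 lists, and it was between 0.0031 and 0.115. It was computed over 19124 genes, from 2 values each, so that a close gene is no sign of likeness in any other respect. The values of lin-39 are those of the region at cux-7, and the replicate 1 value of egl-5 lies at egl-45.

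The 10 kb limit left pooled regions close to its edge. The nearest left out of all windows lay 10046 bp from mab-5 (signal 17.7) and 10189 bp from lin-39 (17.1). The farthest inside lay 9891 bp from ceh-13 (19.4) and 9764 bp from php-3 (15.3).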

How the data were processed

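The 4 lists in the ce11 build were used, and the ce10 lists were left out because the annotation is of ce11. Per the notes that came with the deposited lists, the authors derived each replicate list from 1 alignment and the pooled list from both, each together with a further file that those notes do not describe and that may be the control, and derived the optimal list from those 3 by IDR (irreproducible discovery rate). Neither the alignment tool nor the program that called the regions is given in the sources used here. Each list has a signal and a summit per region. The signal value of each region was used as deposited, to rank and describe regions within a list. Signals of different lists were compared only among the alternative values given at the end, where their scales differ. The −log10 q-value of the authors, as deposited, served only for 1 alternative ranking. The score of the optimal list, as deposited, was not used, since its meaning is not known here. Read counts were not used, so that the depth is unknown and no interval was computed.

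Summits, at the start plus the deposited offset, were placed on Ensembl release 115 genes of WBcel235, the same build as ce11, and matched between lists within 100 bp, with Python 3.11.15, numpy 2.4.6 and pandas 2.3.3. The steps were tested on simulated data. With 1 group and 2 libraries no test was made. The members and gene lists were chosen with earlier results of these data known. For each Hox gene, the 2 regions of highest pooled signal and the genes nearest to them are named, and of each role in the regulator list the 2 genes with the highest pooled signal; other regions were named after their values were seen.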

Additional observations from a re-analysis of the deposited data

How the results depend on the processing

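No paired analysis was possible because the series has 1 group of 2 libraries. Of 48 alternative values, 24 stayed close to the reported value (counts within 1.5 times, signals within 1 SD of the values of the 2 replicate lists) and 24 moved. That SD is wide for the highest signal, on which the replicates differ most. With the replicate lists in place of the pooled list, the highest signal ranged from 26.0 to 96.9, the median from 10.1 to 12.1 and the regions among the 519 strongest from 0 to 1. These signals are on the scale of each list, so that where a signal moved between lists the change can be one of scale. A window of 5 kb gave 19 regions, 0 optimal, 0 among the strongest, 1 in both replicates, a median of 15.3, a maximum of 24.8, and 8 with TAAT, 2 with GAGAG and 1 with TGATNNAT. A window of 20 kb gave 55 regions, of which 10 were in both replicates and 27 held TAAT. Taking only regions with a Hox gene at the nearest 5′ end, an alternative chosen after seeing the data except for the count of regions, gave 23 regions, 0 optimal, 0 among the strongest, 3 in both replicates and a maximum of 32.4. Overlap by 1 bp gave 11 regions in both replicates, a promoter of 500 bp up and 100 bp down gave 3, and 100 bp on each side gave 31 with TAAT and 4 with TAATTA. The narrower settings hold fewer regions by construction, and those of 5 kb leave out the region at cux-7. The absence of depth limits all counts.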
